A study of Mus musculus with 6 samples.

Results

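The mitochondrial respiratory chain genes were taken as the nuclear genes in symbol series named for subunits. The series were Nduf with a, b, c, s or v and a number (NADH dehydrogenase), Sdh (succinate dehydrogenase) and Uqcr (the cytochrome bc1 complex). Cox4 to Cox8 (cytochrome c oxidase) and Atp5 (ATP synthase) were the others. This gave 85 of 29458 genes that have a symbol of their own on the array, measured by 88 transcript clusters, the probe groups of the array. They comprised 36 genes of complex I, 4 of complex II, 8 of complex III, 18 of complex IV and 19 of complex V. Of the 85, 80 encode subunits. Atp5c1-ps and Atp5l-ps1 are pseudogenes, Atp5s and Atp5sl are named Dmac2l and Dmac2 in RefSeq, and Cox7a2l encodes a factor that joins complexes III and IV. Ndufa4 was counted with complex I by its symbol, although its protein is now assigned to complex IV. Nuclear subunits with other symbols, such as Ndufab1 of complex I and Cyc1 of complex III, were placed in a list of further subunits and isoforms.

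The study measured ribosome-associated mRNA of CD11brGFP transgenic mice aged 2 to 3 months on 6 Affymetrix MoGene-2_0-st arrays. The stroke group had 3 arrays, from mice 24 h past a transient occlusion of the middle cerebral artery (tMCAO), which blocks and then reopens a brain artery. The control group had 3 arrays, from sham-operated mice. Both groups carried a transgene for Flag/EGFP-tagged RPL10a, a protein of cytosolic ribosomes, driven by the promoter of CD11b, a surface protein of microglia and further myeloid cells. Translating ribosome affinity purification (TRAP) recovered mRNA on the tagged ribosomes, and 100 ng of RNA was labelled per sample. The labels give 6 mice per group, state in different places that only males were used and that males and females were equally represented, and do not say how mice were distributed over the arrays. P-values therefore measure the spread between these arrays, part of which may be technical.

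Complexes I and II pass electrons from NADH and succinate to ubiquinone, complex III passes them to cytochrome c, and complex IV passes them to oxygen. Complexes I, III and IV pump protons across the inner mitochondrial membrane, and complex V uses their return to make ATP. Most subunits are encoded in the nucleus and translated on cytosolic ribosomes, while a small set is encoded by mitochondrial DNA and translated inside the organelle. Brain tissue depends on this pathway for its energy, and it lacks oxygen where an artery is blocked.

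6 promoter windows are shown, with the letters of 4 motifs in capitals. They belong to Cox7b, Cox6b2 and Atp5j2, the protein-coding members with the largest negative differences, to Atp5e and Uqcr10, the members with the largest shift shared by the arrays numbered 2, and to Cox6a1, the member with the highest signal. Each runs 5′ to 3′ on the gene's strand, from 250 bases before to 50 after the start site (RefSeq, GRCm38.p6).
Cox7b, chrX:106015450-106015749, plus strand: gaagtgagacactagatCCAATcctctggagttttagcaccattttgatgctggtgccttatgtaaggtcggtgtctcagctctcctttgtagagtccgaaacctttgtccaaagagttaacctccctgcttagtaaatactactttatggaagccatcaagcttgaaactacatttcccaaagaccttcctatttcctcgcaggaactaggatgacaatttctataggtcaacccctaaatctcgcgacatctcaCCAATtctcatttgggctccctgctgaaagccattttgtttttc
Cox6b2, chr7:4753045-4753344, minus strand: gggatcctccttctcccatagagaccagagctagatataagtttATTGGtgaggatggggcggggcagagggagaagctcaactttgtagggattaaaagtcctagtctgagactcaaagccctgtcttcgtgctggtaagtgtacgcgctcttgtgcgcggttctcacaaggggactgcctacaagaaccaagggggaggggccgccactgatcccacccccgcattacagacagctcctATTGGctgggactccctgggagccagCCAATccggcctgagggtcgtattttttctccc
Atp5j2, chr5:145191492-145191791, minus strand: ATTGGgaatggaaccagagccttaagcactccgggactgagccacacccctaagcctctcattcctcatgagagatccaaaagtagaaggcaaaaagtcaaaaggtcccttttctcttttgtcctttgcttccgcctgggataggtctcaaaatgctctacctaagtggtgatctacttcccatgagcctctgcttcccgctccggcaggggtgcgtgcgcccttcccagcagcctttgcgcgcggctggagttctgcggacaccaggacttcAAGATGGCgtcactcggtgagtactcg
Atp5e, chr2:174464052-174464351, minus strand: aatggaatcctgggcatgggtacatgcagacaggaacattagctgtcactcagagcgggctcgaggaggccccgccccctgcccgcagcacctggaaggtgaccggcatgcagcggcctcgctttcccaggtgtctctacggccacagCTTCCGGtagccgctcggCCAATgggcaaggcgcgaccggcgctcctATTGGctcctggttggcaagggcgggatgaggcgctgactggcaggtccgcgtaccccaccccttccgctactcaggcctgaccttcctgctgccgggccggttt
Uqcr10, chr11:4704295-4704594, minus strand: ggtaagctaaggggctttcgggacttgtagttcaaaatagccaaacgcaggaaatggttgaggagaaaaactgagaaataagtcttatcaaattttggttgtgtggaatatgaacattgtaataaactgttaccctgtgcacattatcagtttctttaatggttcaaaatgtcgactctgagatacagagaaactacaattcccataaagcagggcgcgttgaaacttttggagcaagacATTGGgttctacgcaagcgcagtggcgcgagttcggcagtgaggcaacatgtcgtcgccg
Cox6a1, chr5:115348909-115349208, minus strand: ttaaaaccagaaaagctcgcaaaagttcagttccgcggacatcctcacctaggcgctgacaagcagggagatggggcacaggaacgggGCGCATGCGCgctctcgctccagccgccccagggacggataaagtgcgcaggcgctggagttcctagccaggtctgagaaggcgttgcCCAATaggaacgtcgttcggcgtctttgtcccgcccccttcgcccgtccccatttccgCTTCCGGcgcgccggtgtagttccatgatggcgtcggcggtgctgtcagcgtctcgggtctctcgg

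The motifs searched on both strands were GCATGCGC for NRF1, CCGGAAG for GABP, AAGATGGC for YY1 and CCAAT for NF-Y. NRF1, GABP and YY1 are transcription factors known for binding near the start sites of respiratory chain genes. RefSeq windows were found for 69 of the 85 genes (75 windows). The NRF1 letters were in 13.3% of these windows and in 2.71% of all 32851 windows of the same length. The GABP letters were in 21.3% and 8.86%, the YY1 letters in 12 of the 75 windows and 2.75% of all, and the NF-Y letters in 42.7% and 37.4%. At least 1 of the first 3 motifs was in 42.7% of the members' windows and in 13.3% of all windows. In the window of Cox6a1 the capitals mark a pair of NRF1 matches on opposite strands that overlap each other, a GABP match and an NF-Y match. Atp5e holds a GABP match and a pair of NF-Y matches, and Atp5j2 a YY1 match 24 bases past the start site and an NF-Y match at the far end. In the windows of Cox7b, Cox6b2 and Uqcr10 the capitals mark NF-Y letters. A match describes letters in a window, and nothing about binding was measured.

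None of the 85 genes passed the test (0 higher and 0 lower in stroke, limma, adjusted p under 0.05 over all genes), where 0.424% of all genes were called, 0.421% higher and 0.00339% lower. With the array number as a block, 0 of the 85 passed as well, beside 0.53% of all genes. The median log2 difference, stroke minus control, was -0.03 over the 85 genes and -0.01 over all genes. It was -0.03 for complex I, 0.03 for complex II, 0.02 for complex III, -0.03 for complex IV and -0.0004 for complex V. At an unadjusted p under 0.05, 0 were higher and 3 lower, beside 3.69% and 2.07% of all genes. The 3 were the complex IV genes Cox7b and Cox6b2 and the pseudogene Atp5c1-ps. In the authors' deposited table, 0 members had a false discovery rate under 0.05 and the lowest was 0.799. The group averages in the authors' deposited table are not the means of the deposited arrays, and their differences depart from those of the fit by up to 0.45 (Ndufa11, -0.50 in the authors' deposited table and -0.05 in the fit).

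Values were higher in stroke for 34 of the 85 genes and lower for 51 (40.0% higher, against 47.2% of all genes and 53.0% of those above the median signal). With arrays centred on their medians the split turned, to 47 higher and 38 lower (55.3% higher, against 57.8% of all genes), and the members' median was 0.02, against 0.03 over all genes. The split also depended on single arrays. With each array left out in turn, it ran from 5 higher and 80 lower (without control array 3) to 60 higher and 25 lower (without control array 2). Of all genes, 47.5% and 50.6% were higher in these 2 runs. For 74 of the 85 (87.1%) the difference was smaller than the pooled SD of the replicate arrays, which held for 72.2% of all genes. That SD was itself larger for the members, with a median of 0.25, against 0.21 over all genes and 0.20 above the median signal. The median size of the difference was 0.08 log2 units, against 0.12 over all genes and 0.11 over genes above the median signal. Fewer cells of a type and less RNA per cell cannot be told apart in such samples.

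**Figure D1:**
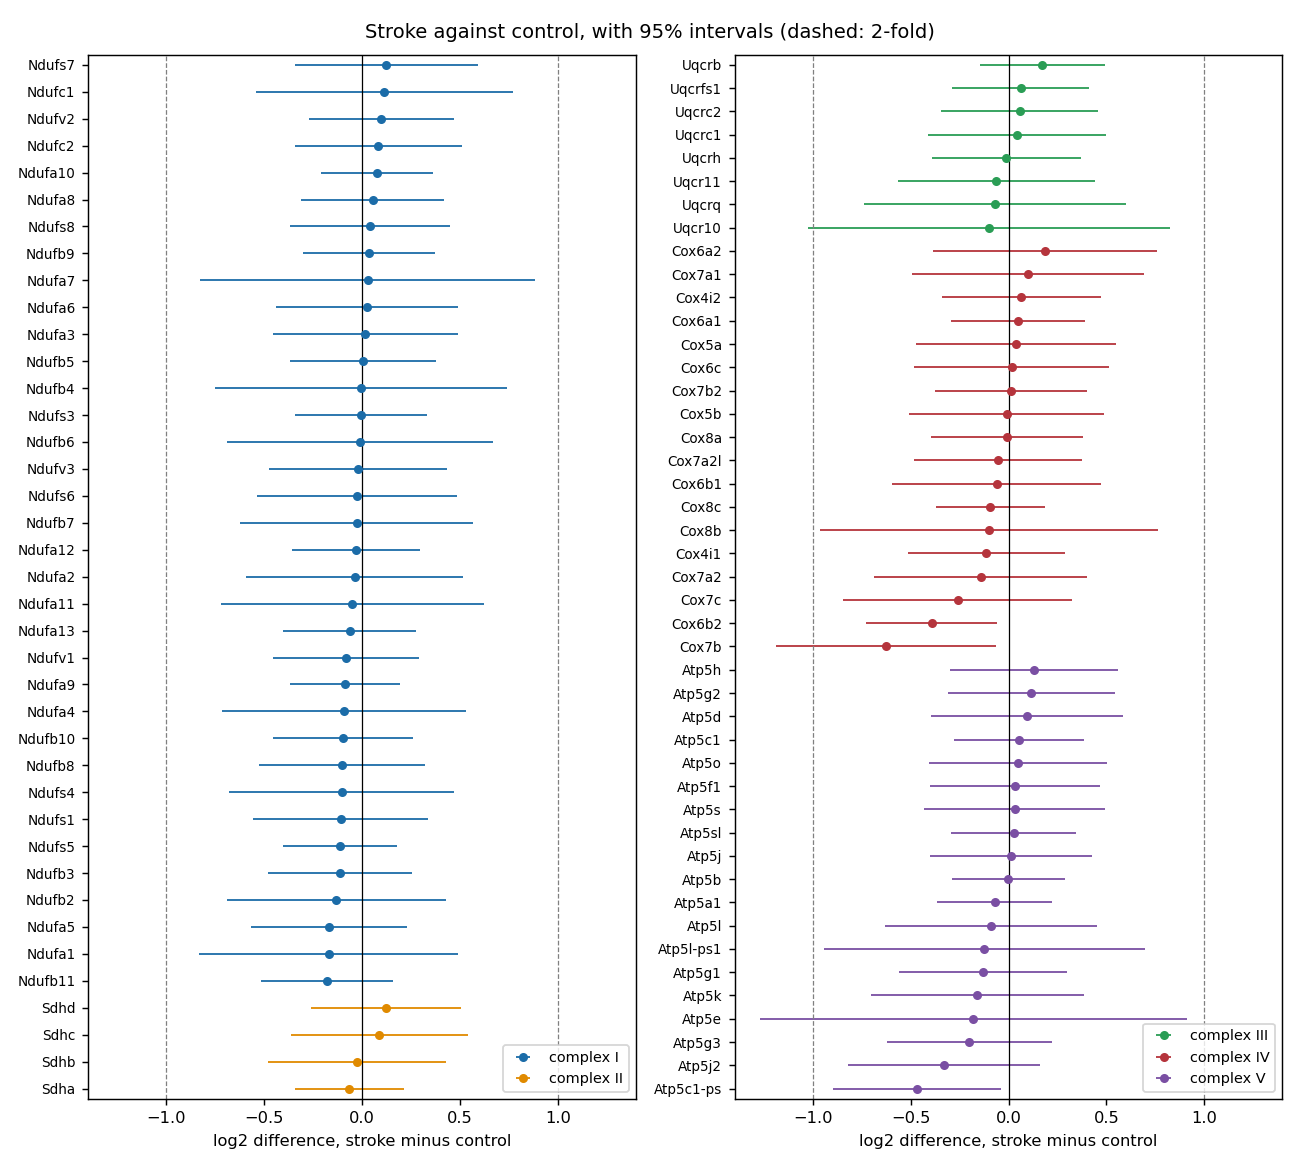
Log2 difference (x axis, stroke minus control) of the respiratory chain genes, each with its 95% interval from limma, grouped by complex. Dashed lines mark a 2-fold change. Among the genes plotted, the intervals of Cox7b, Uqcr10 and Atp5e cross a dashed line, and those of Cox7b, Cox6b2 and Atp5c1-ps do not reach 0.

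A missed threshold does not show that the groups were alike, so the 95% interval of each difference is given, unadjusted for the number of genes. It lay within a 2-fold change in either direction for 82 of the 85 genes (96.5%, against 94.4% of all genes) and within 1.5-fold for 56 (65.9%, against 59.95%). The exceptions to the wider bound were Cox7b (-1.19 to -0.07), Uqcr10 (-1.03 to 0.83) and Atp5e (-1.27 to 0.91). Most members were bright, with 78 of the 85 above the median signal. Of all genes above that median, 94.3% lay within 2-fold and 63.8% within 1.5-fold. Of the 7365 genes of highest signal, 96.4% and 69.0% did, so within 1.5-fold the members' share was below that of these bright genes. The members' median SE was 0.19, against 0.17 over all genes and 0.16 over those 7365. With the array number as a block, the intervals of all 85 lay within 2-fold. Those of 80 members lay within 1.5-fold (94.1%, against 77.7% of all genes and 84.5% of those above the median signal). Those of 28593 of the 29458 genes lay within 2-fold with the block. The block was chosen from the same values, and with it the median SE of the members was 0.12. Over the members, stroke array 1 correlated more with control array 3 (0.519) than with control array 1 (0.378). The narrower intervals are therefore no separate evidence of small differences.

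Complex I is where electrons from NADH enter. None of its 36 genes taken by symbol was called, and none had an unadjusted p under 0.05. Their log2 differences ran from -0.18 for Ndufb11 to 0.12 for Ndufs7, with 12 above 0 and 24 below. With arrays centred on their medians, 20 were above 0 and 16 below, and the median of complex I was 0.02. Leaving out control array 3 gave 1 above and 35 below, and leaving out control array 2 gave 26 above and 10 below. Ndufs7, which carries an iron-sulfur cluster near the ubiquinone site, was at 10.96, 11.40 and 10.97 in stroke and 10.98, 11.31 and 10.67 in control (log2 signal of arrays 1, 2 and 3 of each group, an order kept throughout). In both groups array 2 was highest, and the groups overlapped. Ndufs1, the largest subunit, which carries several iron-sulfur clusters, was at 9.32, 8.76 and 9.38 in stroke and 9.45, 9.15 and 9.18 in control. Its lowest value was that of stroke array 2, and its difference was -0.11 (95% interval -0.56 to 0.34), where the averages in the authors' deposited table differ by 0.18. Ndufv1, which binds NADH and the flavin cofactor, was at 9.73, 9.46 and 9.80 in stroke and 9.83, 9.51 and 9.89 in control. Its groups overlapped, with a difference of -0.08.

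The groups also overlapped in the further complex I subunits described next. Ndufs8, a further iron-sulfur subunit, averaged 10.69 ± 0.14 in stroke and 10.65 ± 0.29 in control (SD, n = 3 arrays a group here and below). Ndufv2, an iron-sulfur partner of Ndufv1, differed by 0.10, and Ndufc1, an accessory subunit, by 0.11. The largest negative differences were in accessory subunits. Ndufb11 averaged 6.86 ± 0.12 in stroke and 7.04 ± 0.17 in control, Ndufa1 9.69 ± 0.35 in stroke and 9.86 ± 0.55 in control and Ndufa5 8.07 ± 0.25 in stroke and 8.24 ± 0.18 in control. Their differences were -0.18 (SE 0.15), -0.17 (SE 0.29) and -0.17 (SE 0.17). Ndufa4, now assigned to complex IV, differed by -0.09.

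Ndufb9 and Ndufa3 had the highest signals of complex I and differed by 0.03 and 0.02. The cluster named for Ndufs5 alone had the lowest signal, 4.94 ± 0.11 in stroke and 5.05 ± 0.02 in control, below the median of all genes. A cluster that Ndufs5 shares with BC002163 was at 9.52, 10.30 and 9.07 in stroke and 9.36, 10.54 and 9.02 in control. It differed by -0.01 and was highest on array 2 of both groups. Signals of different probes do not compare as mRNA levels, and a low signal is not shown to be above background.

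Groups that did not overlap were few. All 3 stroke values lay below the control values for 4 of the 85 genes, beside 4.89% of all genes, and above them for 1, beside 6.34% of all genes. Those below were Ndufa9, Sdha, Cox6b2 and Cox8c, and that above was Ndufa10. Ndufa10 and Ndufa9, accessory subunits of complex I, are named here after their values were seen. Ndufa10 was at 11.00, 11.13 and 10.96 in stroke and 10.94, 10.96 and 10.96 in control, a difference of 0.08, and its lowest stroke value and highest control value nearly touched. Ndufa9 was at 10.20, 10.22 and 10.28 in stroke and 10.28, 10.29 and 10.39 in control, a difference of -0.09. For Ndufa9, Ndufa10, Sdha and Cox8c the adjusted p was 0.9998, and the separation came with differences of at most 0.09 in size.

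Complex II is the succinate dehydrogenase of the citric acid cycle and has no mitochondrially encoded subunit. Sdha, the flavoprotein with the active site, was at 11.44, 11.38 and 11.47 in stroke and 11.51, 11.47 and 11.50 in control. Its groups did not overlap, with a difference of -0.07 (95% interval -0.34 to 0.21). Sdhb, the iron-sulfur subunit, was at 9.95, 10.16 and 9.90 in stroke and 10.03, 10.40 and 9.67 in control. Sdhc and Sdhd anchor the enzyme in the membrane. Sdhc averaged 9.65 ± 0.30 in stroke and 9.56 ± 0.24 in control, and Sdhd 9.88 ± 0.16 in stroke and 9.76 ± 0.23 in control. The groups overlapped in Sdhb, Sdhc and Sdhd, and the intervals of all 4 genes lay within 1.5-fold.

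Complex III holds the Rieske iron-sulfur protein Uqcrfs1 and the core proteins Uqcrc1 and Uqcrc2. Of its 8 Uqcr genes, 4 were above 0 and 4 below, from -0.10 to 0.17, or 5 above and 3 below with arrays centred on their medians. Leaving out stroke array 3 gave 8 above and 0 below, and leaving out control array 3 gave 1 above and 7 below. Uqcrfs1 was at 7.70, 7.86 and 7.59 in stroke and 7.70, 7.82 and 7.45 in control. Uqcrc1 averaged 10.71 ± 0.29 in stroke and 10.67 ± 0.25 in control, and Uqcrc2 10.21 ± 0.21 in stroke and 10.15 ± 0.23 in control. The groups overlapped in these 3 genes. Uqcrb, a small subunit, had the largest positive difference (0.17, SE 0.14) and was at 5.67, 5.54 and 5.54 in stroke and 5.25, 5.41 and 5.57 in control, near the median signal of all genes. Uqcr10, another small subunit, was at 8.18, 8.97 and 7.87 in stroke and 8.29, 9.26 and 7.77 in control. Its values spanned more than 1 log2 unit within each group, against a difference between groups of -0.10. The small subunits Uqcrq and Uqcr11 differed by -0.07 and -0.06.

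Complex IV held the protein-coding members with the lowest unadjusted p. Cox7b, a small subunit (chromosome X, 106015700 to 106022450, GRCm38.p6), was at 5.52, 6.19 and 5.39 in stroke and 6.17, 6.67 and 6.14 in control. Stroke arrays 1 and 3 lay below every control array, and stroke array 2 lay just above control arrays 1 and 3. Its signal in stroke was 0.647 times that in control (log2 difference -0.63, SE 0.24, unadjusted p = 0.0327 and adjusted p = 0.787 by limma). It did not pass the test with the array number as a block either (adjusted p = 0.109). The difference was -0.70 without both arrays numbered 2, and between -0.87 and -0.45 when each array was left out in turn.

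Cox6b2, known as a testis form of subunit VIb, was at 6.56, 6.40 and 6.41 in stroke and 6.79, 7.05 and 6.70 in control. The groups did not overlap, and the log2 difference was -0.39 (SE 0.15, unadjusted p = 0.0269, adjusted p = 0.747 by limma, or 0.354 with the block). It was -0.26 without both arrays numbered 2. Its widely expressed paralog Cox6b1 was at 10.81, 11.09 and 10.66 in stroke and 10.78, 11.40 and 10.55 in control, with overlapping groups and a difference of -0.06. Cox7c, another small subunit, was at 5.59, 4.72 and 5.57 in stroke and 5.34, 5.50 and 5.81 in control. Stroke array 2 decided its difference of -0.26, which was 0.03 without that array and 0.05 in the authors' deposited table.

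**Figure D2:**
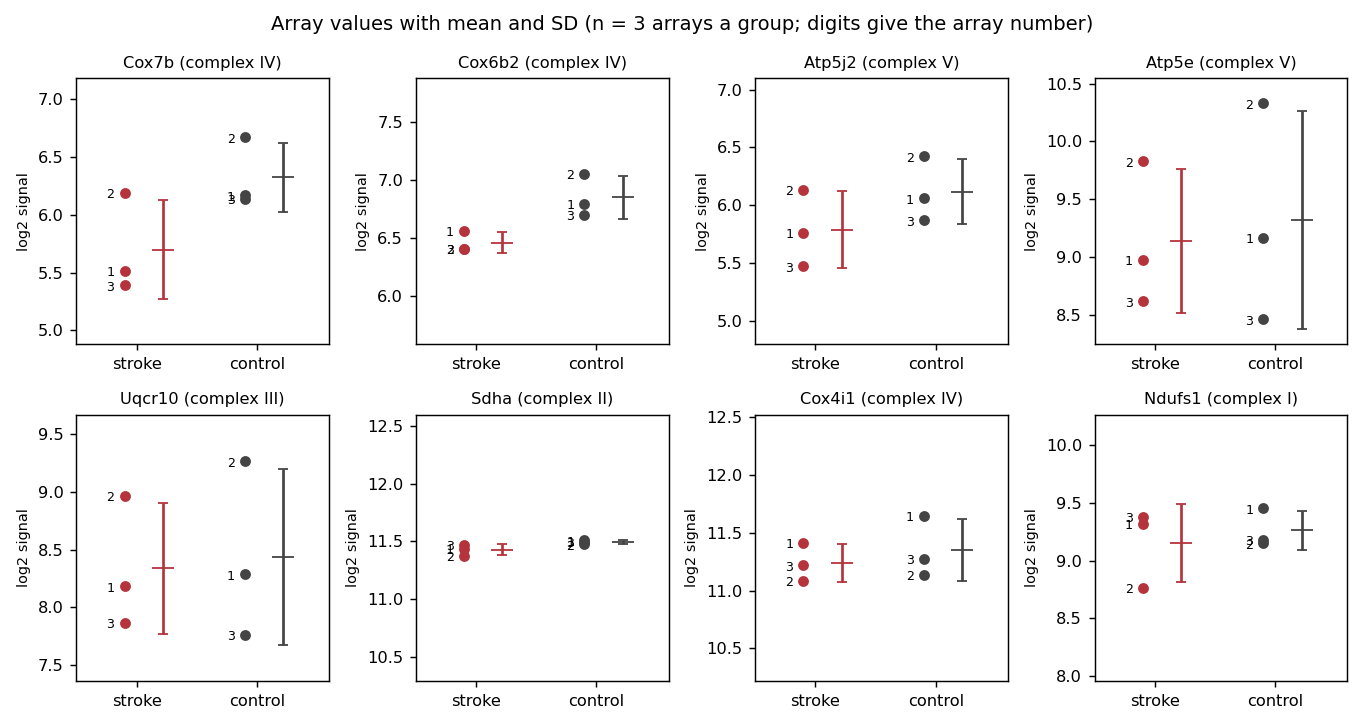
Log2 signal (y axis) of 8 respiratory chain genes on each stroke and control array (points), with the mean and SD of 3 arrays. The groups do not overlap for Cox6b2 and Sdha, Atp5e and Uqcr10 spread over more than 1 log2 unit within each group, and Ndufs1 and Cox4i1 are lowest on array 2 of each group.

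Several complex IV subunits come as isoforms that differ by tissue. Cox4i1, the general form of subunit IV, was at 11.41, 11.09 and 11.22 in stroke and 11.65, 11.14 and 11.27 in control. Cox4i2, a form known for lung and low oxygen, was at 6.39, 6.13 and 6.62 in stroke and 6.32, 6.52 and 6.11 in control. The groups overlapped in both, with differences of -0.11 and 0.07. For subunit VIa, the general form Cox6a1 averaged 13.27 ± 0.10 in stroke and 13.22 ± 0.19 in control, and the heart and muscle form Cox6a2 8.20 ± 0.37 in stroke and 8.02 ± 0.39 in control. Cox6a2 had the largest positive difference of the 85 genes, 0.18 (95% interval -0.39 to 0.76), with overlapping groups, where the averages in the authors' deposited table differ by -0.02. The 8 muscle markers had a median difference of 0.48 with 0 called, and their mean log2 signal ran from 5.40 to 6.66 on stroke arrays and 5.25 to 5.46 on control arrays. Stroke array 3 decided that median, which was 0.07 without it. Their part in the values of the muscle forms was not tested.

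The heart and muscle form of subunit VIIa, Cox7a1, differed by 0.10 and the general form Cox7a2 by -0.14, both with overlapping groups. The related factor Cox7a2l differed by -0.05. The testis form of subunit VIIb, Cox7b2, averaged 5.13 ± 0.16 in stroke and 5.12 ± 0.25 in control. For subunit VIII, the general form Cox8a averaged 12.13 ± 0.09 in stroke and 12.14 ± 0.28 in control, the heart and muscle form Cox8b 5.12 ± 0.21 in stroke and 5.22 ± 0.85 in control, and the testis form Cox8c 3.498 ± 0.05 in stroke and 3.59 ± 0.01 in control. Cox7b2, Cox8b and Cox8c had signals below the median of all genes.

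Complex V is built from the catalytic F1 head and a membrane part whose ring of c subunits turns as protons pass. Atp5b, the catalytic beta subunit of the head, was at 12.50, 12.64 and 12.52 in stroke and 12.57, 12.60 and 12.50 in control. Its difference was -0.0004, with a 95% interval of -0.29 to 0.29. Atp5a1, the alpha subunit beside it, was at 11.84, 11.72 and 11.91 in stroke and 11.95, 11.89 and 11.85 in control, a difference of -0.07. In both genes the groups overlapped.

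Atp5g1, Atp5g2 and Atp5g3 encode the same mature c subunit behind different import signals. Atp5g1 was at 6.94, 7.59 and 7.19 in stroke and 7.24, 7.51 and 7.35 in control. Atp5g2 was at 11.31, 11.62 and 11.27 in stroke and 11.26, 11.59 and 11.01 in control. Atp5g3 was at 9.42, 9.60 and 9.34 in stroke and 9.70, 9.93 and 9.31 in control. The differences were -0.13, 0.12 and -0.20, and the groups of all 3 overlapped. A second cluster of Atp5g2 differed by 0.14, and a cluster that Atp5g2 shares with Mir688 by -0.28 (adjusted p = 0.973 by limma).

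Atp5j2, subunit f of the membrane part, was at 5.76, 6.13 and 5.47 in stroke and 6.06, 6.42 and 5.87 in control. Each stroke array lay below the control array of the same number, but the groups overlapped (difference -0.33, unadjusted p = 0.162 and, with the block, 0.0187 by limma). The adjusted p was 0.9998, or 0.347 with the block. Atp5e, the small epsilon subunit of the head, was at 8.97, 9.83 and 8.62 in stroke and 9.17, 10.33 and 8.46 in control. Its SD was 0.62 in stroke and 0.94 in control, and its difference was -0.18. Atp5h, subunit d of the stalk, and Atp5d, the delta subunit of the head, had differences of 0.13 and 0.09. A second cluster of Atp5h went the other way, with a difference of -0.09. It was at 6.12, 5.59 and 5.95 in stroke and 6.26, 5.47 and 6.21 in control, lowest on array 2 of both groups.

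The pseudogene Atp5c1-ps was at 2.94, 2.85 and 3.03 in stroke and 3.58, 3.63 and 3.01 in control (difference -0.47, unadjusted p = 0.0369 and adjusted p = 0.811 by limma). Its signal was higher than that of only 13.3% of genes, and the groups overlapped. Atp5c1, which encodes the gamma subunit of the head, differed by 0.05. Probes of Atp5c1 and Atp5c1-ps, or of Atp5l and Atp5l-ps1, may bind transcripts of either copy, so these values are uncertain.

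For most of the 85 genes, arrays of the same group differed by more than the group means did. Stroke array 2 had the highest stroke value for 63 of the 85 genes (74.1%, against 45.5% of all genes), and control array 2 the highest control value for 64 (75.3%, against 42.5%). Measured as array 2 minus the mean of arrays 1 and 3, the members' median shift was 0.28 in stroke and 0.34 in control. Over all genes it was 0.05 in stroke and 0.04 in control, and over genes above the median signal -0.03 in stroke and -0.08 in control. Both shifts were positive for 67 of the 85 genes (78.8%), against 40.4% of all genes and 32.9% of those above the median signal. Across the 85 genes the shifts in stroke and control correlated at r = 0.766, where all points come from the same 6 arrays. Across all genes r was 0.576.

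**Figure D3:**
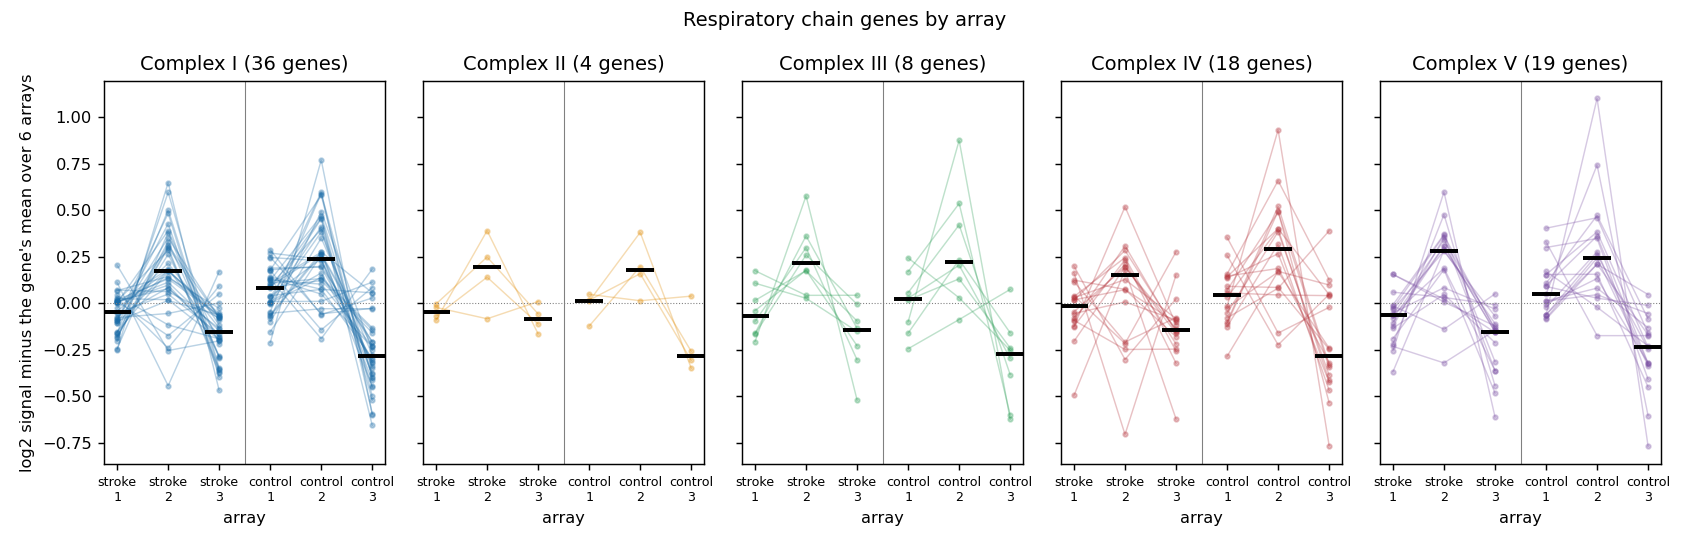
Log2 signal of each respiratory chain gene minus its own mean over the 6 arrays (y axis), by array and complex. Lines join the 3 values of a gene within a group, and black bars mark the median of the complex. In every complex the median is highest on the arrays numbered 2 and lowest on control array 3.

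The shift was seen in every complex. Its median was 0.25 in stroke and 0.32 in control for complex I, 0.25 in stroke and 0.35 in control for complex II, 0.33 in stroke and 0.37 in control for complex III, 0.23 in stroke and 0.36 in control for complex IV, and 0.43 in stroke and 0.34 in control for complex V. The shift, averaged over the groups, was largest for 3 genes. They were Atp5e (1.03 in stroke and 1.52 in control), Uqcr10 (0.94 in stroke and 1.24 in control) and the complex I subunit Ndufa7 (0.87 in stroke and 1.18 in control). Control array 3 held the lowest of the 6 values for 57 of the 85 genes (67.1%, against 17.7% of all genes). The stroke SD was the smaller for 62 of the 85 (72.9%, against 57.2% of all genes).

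The mean log2 signal of the 85 genes was 8.96, 9.17 and 8.85 in stroke arrays and 9.07, 9.28 and 8.76 in control arrays. The groups overlapped, and the difference of -0.04 was smaller than the SD of either group (0.17 in stroke and 0.26 in control). The first principal component of the 85 genes held 80.5% of their variance. On it stroke arrays 1, 2 and 3 lay at -0.88, 2.35 and -1.91, and control arrays 1, 2 and 3 at 0.17, 3.21 and -2.94. The arrays numbered 2 were the highest of each group, and the groups overlapped.

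Some members went the other way. Both shifts were negative for 11 of the 85 genes (12.9%, against 29.6% of all genes). Among them were the core or catalytic subunits Ndufs1 (-0.58 in stroke and -0.17 in control), Ndufv1 (-0.30 in stroke and -0.35 in control), Sdha (-0.08 in stroke and -0.03 in control) and Atp5a1 (-0.16 in stroke and -0.01 in control). Cox4i1 (-0.23 in stroke and -0.33 in control) and Cox7a2l (-0.41 in stroke and -0.38 in control) were also among them, as were Ndufa5, Ndufa9, Uqcrb and Cox7c. Both shifts were positive for the core or catalytic subunits Ndufs7, Ndufs8, Uqcrc1, Uqcrc2, Uqcrfs1 and Atp5b. Those of Uqcrc1 were 0.51 in stroke and 0.34 in control, and those of Atp5b 0.13 in stroke and 0.07 in control. Over all genes the arrays numbered 2 also stood apart on the first component, at 34.6 for stroke and 48.9 for control, with the other arrays between -26.6 and -14.4. The median shift of the microglia markers was 0.36 in stroke and 0.33 in control, that of the oligodendrocyte markers 0.27 in stroke and 0.19 in control, that of the astrocyte markers 0.14 in stroke and 0.15 in control, and that of the neuron markers 0.09 in stroke and 0.09 in control. Both shifts were positive for 8 of 11 microglia, 7 of 8 oligodendrocyte, 5 of 7 astrocyte and 7 of 13 neuron markers. The median shift of the monocyte and neutrophil markers was -0.03 in stroke and 0.02 in control, that of the muscle markers -0.87 in stroke and 0.28 in control, and that of the endothelial and mural markers -0.55 in stroke and -0.44 in control. The part of these cell types in the members' shift was not tested.

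**Figure D4:**
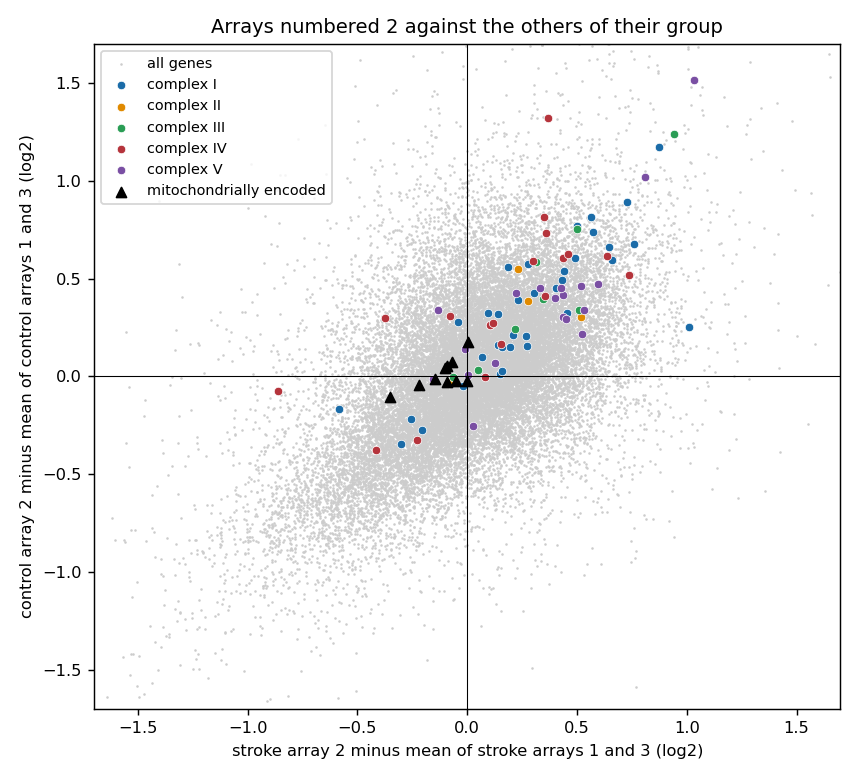
Array 2 minus the mean of arrays 1 and 3 in stroke (x axis) and in control (y axis), in log2 units. Grey points are all genes, of which 170 lie outside the frame, coloured points the 85 respiratory chain genes, and black triangles the 10 mitochondrially encoded subunits. Both shifts are positive for 67 of the 85 coloured points, and the triangles lie near the centre.

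Of the subunits encoded by mitochondrial DNA, 10 were measured. Their mRNAs are translated on mitochondrial ribosomes, which do not contain RPL10a. Apart from mt-Nd6, their mean log2 signals ran from 12.68 to 13.63 in stroke and from 12.78 to 13.69 in control, among the highest signals of the arrays. The complex I subunit mt-Nd1 was at 13.36, 13.29 and 13.37 in stroke and 13.28, 13.41 and 13.38 in control. The complex IV catalytic subunit mt-Co1 was at 13.43, 13.36 and 13.49 in stroke and 13.36, 13.50 and 13.56 in control. The groups of both genes overlapped. How these RNAs entered the purified fraction was not tested, and nuclear copies of mitochondrial sequence make such clusters uncertain.

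None of the 10 was called. All 10 had lower values in stroke, beside 52.8% of all genes, with a median difference of -0.08. With arrays centred on their medians 8 of the 10 were lower, and without stroke array 2 also 8, with medians of -0.03 under both. Without control array 3, 9 were lower and the median was -0.03. The groups did not overlap for mt-Nd6 and mt-Nd4l, where 4.89% of all genes lay below. The complex I subunit mt-Nd4l was at 12.67, 12.65 and 12.73 in stroke and 12.83, 12.76 and 12.74 in control, a difference of -0.09. Of the 10, 1 had an unadjusted p under 0.05. This was mt-Nd6, the complex I subunit on the other strand of mitochondrial DNA, at 9.55, 9.67 and 9.78 in stroke and 9.94, 10.11 and 9.92 in control. Its difference was -0.33 (SE 0.14, unadjusted p = 0.0419 and adjusted p = 0.842 by limma). The median shift of the 10 on the arrays numbered 2 was -0.09 in stroke and -0.02 in control, against 0.28 in stroke and 0.34 in control for the nuclear members. Other nuclear lists also had positive median shifts on the arrays numbered 2. They were 0.27 in stroke and 0.31 in control for 10 further subunits and isoforms (both shifts positive for 8), 0.37 in stroke and 0.28 in control for complex V assembly (both positive for 3 of 4), and 0.27 in stroke and 0.26 in control for complex II and III assembly. That last list was divided, with both shifts positive for 5 of its 9 genes and both negative for 4 (44.4%, against 29.6% of all genes). The median shift was 0.26 in stroke and 0.18 in control for antioxidant enzymes, 0.23 in stroke and 0.13 in control for mitophagy and 0.22 in stroke and 0.17 in control for import and cristae. It was 0.14 in stroke and 0.17 in control for mitochondrial translation and below 0.10 in both groups for the remaining lists that serve the chain.

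In the lists of genes that serve the chain, 0 were called. Cycs, the soluble cytochrome c between complexes III and IV, averaged 10.14 ± 0.36 in stroke and 10.42 ± 0.50 in control. Cyc1, the heme subunit of complex III that hands electrons to it, averaged 9.60 ± 0.08 in stroke and 9.67 ± 0.07 in control. The assembly lists had medians of -0.02 for complex I (13 genes), -0.04 for complexes II and III (9 genes), 0.01 for complex IV (18 genes) and 0.01 for complex V (4 genes). The largest difference in them was 0.25 for Foxred1, an assembly factor of complex I. Of 15 regulators of mitochondrial biogenesis, the coactivator Ppargc1a averaged 10.14 ± 0.10 in stroke and 10.12 ± 0.01 in control. Gabpa, the DNA-binding part of GABP, was at 7.66, 7.99 and 7.83 in stroke and 7.51, 7.59 and 7.58 in control. Its groups did not overlap (difference 0.27, adjusted p = 0.966 by limma), and Nrf1 and Yy1 differed by -0.12 and -0.08. The lists of mitochondrial translation (26 genes), import and cristae (13) and mitophagy (10) had medians of 0.0024, 0.02 and 0.07.

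The largest differences in these lists were those of Ucp2 and Pdk4, and neither passed the test. Ucp2, an inner membrane carrier of the uncoupling protein family that immune cells express, was at 8.12, 8.13 and 8.01 in stroke and 7.44, 7.12 and 6.96 in control. Its groups did not overlap, and its signal in stroke was 1.88 times that in control (log2 difference 0.91, SE 0.16). The adjusted p was 0.0729 by limma, or 0.0530 with the block. Pdk4, a kinase that inhibits pyruvate dehydrogenase, averaged 7.62 ± 0.41 in stroke and 6.97 ± 0.44 in control, with overlapping groups (adjusted p = 0.851). The other 19 genes of the citric acid cycle list, which also holds pyruvate dehydrogenase genes and their kinases, differed by -0.15 to 0.28. The list median was 0.04. Values were higher in stroke for 16 of its 20 genes (80%, against 47.2% of all genes), with 0 called. With arrays centred on their medians 16 were higher as well (against 57.8% of all genes), and without stroke array 3 the count was 14. The median of 9 mitochondrial antioxidant enzymes was -0.05, with Gpx1, a glutathione peroxidase, at 0.40 (adjusted p = 0.951). The 10 further subunits and isoforms had a median of -0.03 and the 12 carriers, Ucp2 among them, one of 0.06.

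**Figure D5:**
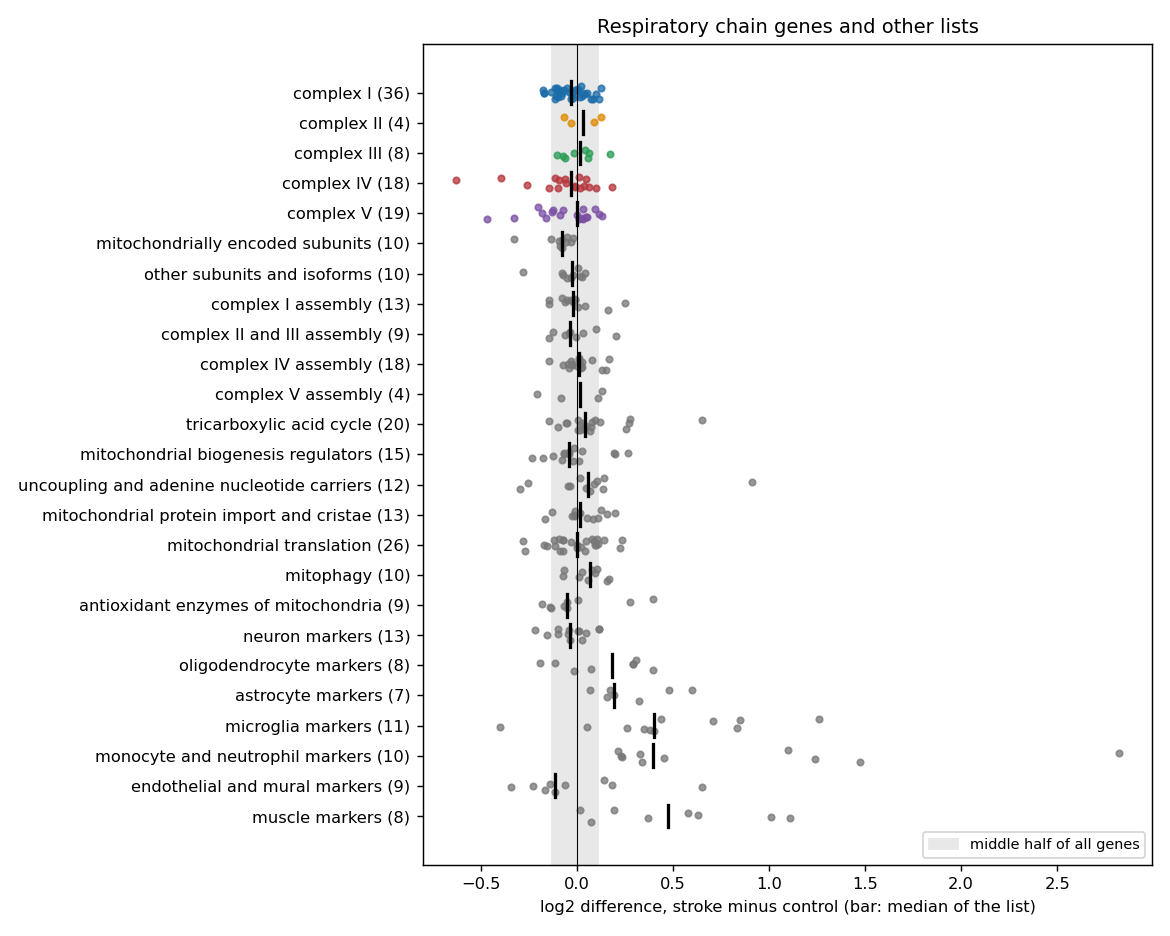
Log2 difference (x axis, stroke minus control) of each gene in the 5 complexes and the other lists, with the number of genes in brackets. Vertical bars are list medians, and the grey band holds the middle 50% of all genes. The medians of the complexes lie between -0.03 and 0.03, with Cox7b and Cox6b2 to the left, and Ucp2, Pdk4 and several myeloid markers lie to the right.

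Markers of the cell types in the samples are given for comparison. The 13 neuron markers had a median difference of -0.04 with 0 called, and a mean log2 signal of 11.04 to 11.15 on stroke arrays and 11.06 to 11.18 on control arrays. The 11 microglia markers had a median of 0.40 with 0 called, and a mean log2 signal of 7.65 to 8.01 on stroke arrays and 7.06 to 7.53 on control arrays. With the block, 2 of them passed, the complement genes C1qb and C1qc (adjusted p = 0.0224 and 0.0453 by limma). Of the 11, 10 were higher in stroke and 1 lower. The 1 lower was P2ry12, a purinergic receptor known as a marker of resting microglia, at 7.77, 7.79 and 7.65 in stroke and 8.02, 8.37 and 8.01 in control. Its groups did not overlap (difference -0.40, unadjusted p = 0.0284 and adjusted p = 0.757 by limma, or 0.310 with the block). All 10 monocyte and neutrophil markers had higher values in stroke, beside 47.2% of all genes. Only 3 of the 10 had signals above the median of all genes, and low signals are not shown to be above background. Lcn2 and Cd44 passed the test (log2 differences 2.82 and 1.47), and with the block S100a8 and S100a9 passed as well. The mean log2 signal of that list was 5.35 to 5.49 on stroke arrays and 4.51 to 4.60 on control arrays. The medians were 0.20 for 7 astrocyte, 0.18 for 8 oligodendrocyte and -0.11 for 9 endothelial and mural markers, each with 0 called. The endothelial and mural median was 0.16 without stroke array 2 and 0.04 without control array 3, and the neuron median 0.02 without stroke array 1 and 0.01 with arrays centred on their medians. Neuron markers were thus at high signal in RNA purified through a myeloid promoter, RNA from before purification was not analysed here, and which cells the respiratory chain signal came from was not tested.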

How the data were processed

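Ribosome-associated mRNA was measured on 3 stroke and 3 control arrays. The authors deposited log2 signals per transcript cluster from Transcriptome Analysis Console 3.0 per the submitters' processing notes, with a workbook of annotation, fold changes (score), p-values and false discovery rates per the file headers. The sources used here do not give the background correction or normalization. The log2 values were used as deposited, and array medians lay between 5.23 and 5.35. Of 41345 clusters, 29971 had a single symbol. Clusters with no symbol (2599), several symbols (1902) or no entry in the workbook (6873) were left out, and the brightest cluster represented a symbol, which left 29458 genes. Stroke minus control was fitted with limma 3.58.1 (R 4.3.3; lmFit and eBayes) and p-values were adjusted over all genes by Benjamini-Hochberg at 0.05. A few arrays limit the precision. The script was tested on simulated data.

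Members and lists were chosen with earlier results of these data known. Named were, per complex, the 3 largest differences in each direction, the brightest and dimmest genes, catalytic subunits, isoform families and all Sdh genes; Atp5e, Ndufa7, Atp5c1 and the genes whose groups did not overlap were named after their values were seen. Array numbers, taken from the labels, were treated as pairs, because deviations of arrays with the same number correlated over all genes (r = 0.299, 0.576 and 0.390). The labels name no pairs, so the block was chosen from the same values that it was then used on. Arrays of unlike numbers correlated between -0.460 and 0.237, and over the 85 members stroke array 1 correlated more with control array 3 (0.519) than with control array 1 (0.378). The alternatives were the block, other normalizations, filters, weights, and leaving out arrays. Promoters are RefSeq GRCm38.p6. An item withheld from this text is counted in the totals but not reported here.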

Additional observations from a re-analysis of the deposited data

How the results depend on the processing

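No respiratory chain gene was called under any alternative run. With the replicate block 0 of the 85 passed, and over all genes 153 were higher and 3 lower, against 124 and 1 without it. Among the members and lists, the block changed no call other than those given beside the marker lists. Array weights gave 214 higher and 3 lower, and leaving out both arrays numbered 2 gave 70 higher and 0 lower. When each array was left out in turn, 25 (without control array 1) to 73 (without control array 2) genes were higher and 0 to 1 lower. The median difference of the 85 genes lay between -0.14 and 0.10. Of 55 values followed (medians and named genes), 20 changed sign without stroke array 2, 18 without control array 3, 15 without control array 2, 15 with the group averages of the authors' deposited table, which are not the means of the deposited arrays, and 7 with arrays centred on their medians. Signs of differences this small are therefore not settled. With 3 arrays a group the median SE of a member was 0.19 log2 units, or 0.12 with the block, and signals as low as those of Cox8c and Atp5c1-ps are not shown to be above background. Dates and slides of the arrays were not used here.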
